A study of Mus musculus with 6 samples.

Results

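Insulin, PI3K-AKT and mTOR signalling was followed through 30 genes in total RNA from mouse small intestine. The genes were taken by name from a list of the pathway's receptors, adaptors, kinases, brakes and substrates. That list was chosen with earlier results of these data known. They are 30 of the 45777 genes in the table, each was found once, and all 30 had enough reads to be tested. The study set 3 libraries labelled as PKCzeta overexpression, with "zeta" in their titles, against 3 labelled as control. PKCzeta is the product of Prkcz and belongs to the atypical protein kinases C. The titles of the controls name GFP, green fluorescent protein. The prefix DIO stands in the titles of both groups without an explanation, and the labels give no strain or age and no route by which PKCzeta or GFP was delivered. The study's title ties atypical PKC and the glucose transporter GLUT1 to the effect of gastric bypass on glucose handling. The labels do not say that each library is a separate animal, so p-values measure the spread between these samples, which may be technical.

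Insulin binds its receptor at the cell surface, the receptor phosphorylates IRS adaptors, and these recruit phosphoinositide 3-kinase (PI3K), which makes the membrane lipid PIP3. PIP3 draws the kinases PDK1 and AKT to the membrane, and PDK1 also phosphorylates the atypical PKCs. AKT restrains the TSC complex, GSK3 and the FOXO transcription factors, and with TSC restrained the small GTPase RHEB activates mTOR complex 1, which phosphorylates the S6 kinases and the translation repressor encoded by Eif4ebp1. Nearly all of these steps are changes of phosphorylation, which RNA levels do not show. In the intestinal epithelium the pathway is known for its part in nutrient sensing, cell growth and the renewal of the crypts.

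The libraries held 77573133 to 87572356 counts with the PKCzeta label and 85411847 to 93742978 with the GFP label. Ribosomal RNA took 0.956% to 4.44% of counts with the PKCzeta label and 1.35% to 4.66% with the GFP label, with the lowest shares in PKCzeta 4-2 and GFP 1-4. Levels are given in CPM, counts scaled to library size with TMM factors, and comparisons between genes in TPM, which also corrects for transcript length. Prkcz itself, the gene named in the label, was at 82.5, 100.07 and 57.0 CPM in PKCzeta 2-1, 4-1 and 4-2, against 70.5, 98.6 and 96.9 CPM in GFP 1-1, 1-4 and 3-1. The ranges overlapped, and the log2 fold change was -0.15 (SE 0.24, adjusted p 0.95, edgeR), or 0.047 without PKCzeta 4-2. Prkcz was thus not measurably higher under its own label, and every direction below is one between libraries labelled PKCzeta and libraries labelled GFP. Markers of absorptive enterocytes were present throughout, as the tissue label has it. Their summed level over 14 genes was 20711 to 42696 CPM with the PKCzeta label and 51195 to 61213 CPM with the GFP label. All 14 had a negative log2 fold change, though 0 passed an adjusted p of 0.05 in edgeR. At an unadjusted p under 0.05 in edgeR there were 9 of the 14 (64.3%, beside 5.48% of all tested genes). The ranges did not overlap for 6 of the 14 (42.9%, beside 10.4% of all tested genes). Fabp1 and Slc5a1 were highest in PKCzeta 4-1. The sum of 6 general epithelium markers overlapped, at 8709 to 10108 CPM with the PKCzeta label and 8263 to 11210 CPM with the GFP label. Singly, 4 of the 6 had negative log2 fold changes and 2, Krt18 and Krt19, had positive ones. The ranges did not overlap for Cdh1 and Cldn7, both lower with the PKCzeta label (33.3% of the 6, beside 10.4% of all tested genes).

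None of the 30 genes passed the test between the labels. In edgeR's quasi-likelihood test over 18456 genes, 0 of the 30 passed an adjusted p of 0.05, and the smallest adjusted p among them was 0.917. The same test called 0 genes of all tested, or 0%, so the members' count equals the background. At an unadjusted p under 0.05 there were 0 members, beside 1012 of all tested genes (5.48%), of which 2.41% were higher and 3.07% lower with the PKCzeta label. DESeq2, run as an alternative, called 82 of the 14493 genes for which it gives an adjusted p (0.566%) and 0 members. The fold changes fell evenly around 0, with 15 members higher and 15 lower and a median log2 fold change of -0.0026, against 0.035 for all tested genes, of which 54.3% were higher. On the log2(TPM + 1) scale 25 members were higher and 5 lower, with a median of 0.19, where the median of all tested genes was itself 0.14.

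The intervals say how large a change could still be present. The 95% interval of the log2 fold change lay within a 2-fold change either way for 26 of the 30 genes, and within a 1.5-fold change for 7 of them. The 4 that reached past 2-fold were Insr, Pik3cd, Foxo1 and Tbc1d4. The median standard error was 0.22 for the members and 0.30 for all tested genes. The pooled within-group SD of log2 CPM had a median of 0.28 over the members and of 0.29 over the 10611 tested genes in the members' range of mean levels, from 2.34 to 115.6 CPM.

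**Figure D1:**
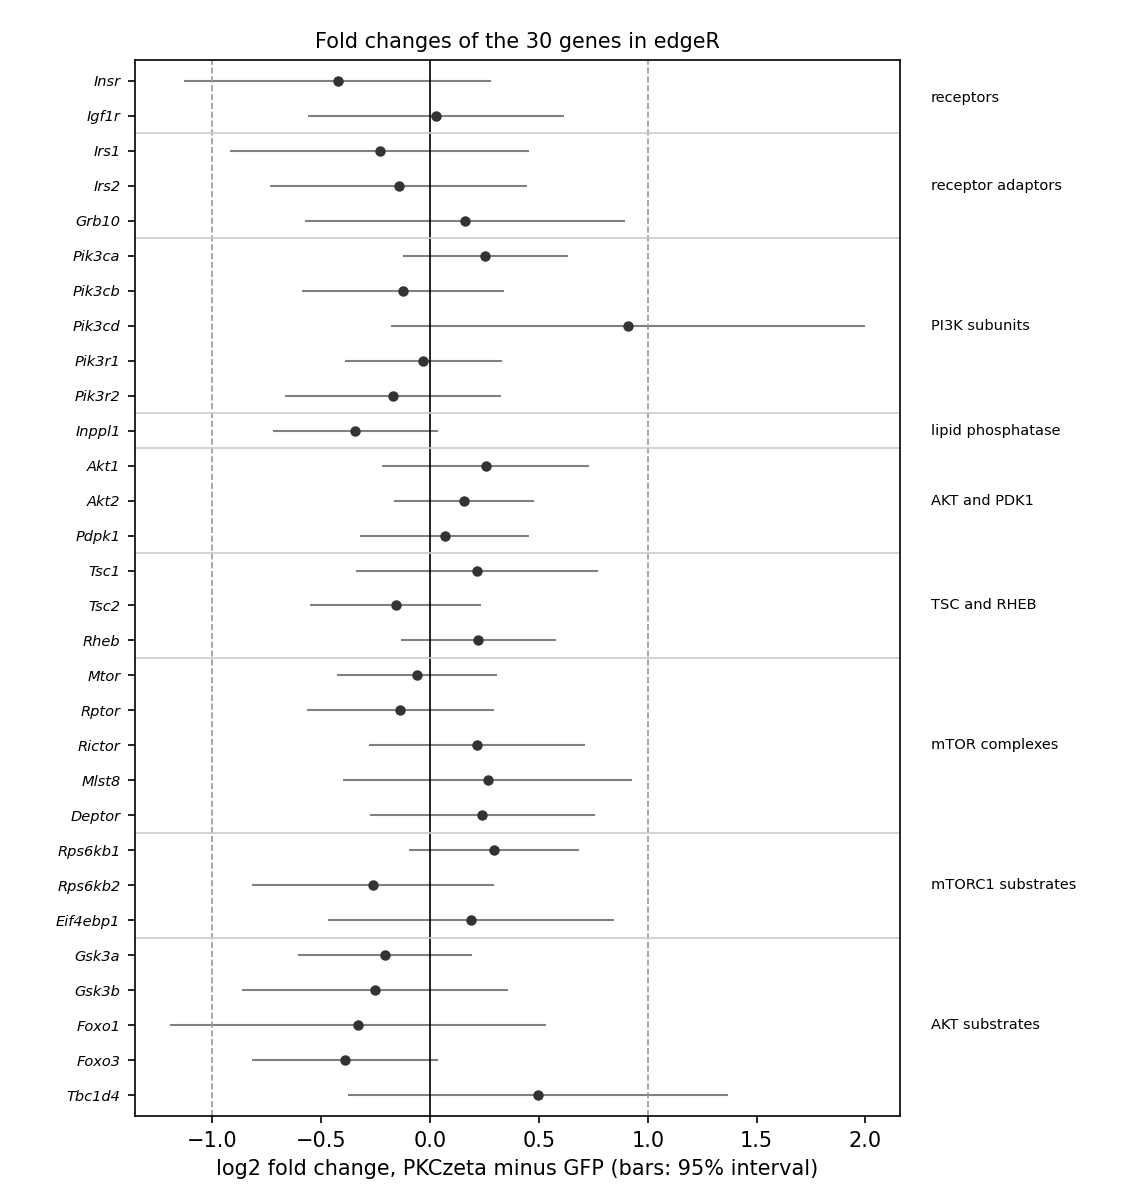
Log2 fold change of each of the 30 genes, PKCzeta minus GFP, with its 95% interval from edgeR (n = 3 libraries each), grouped by role from the receptors at the top to the AKT substrates at the bottom. Dashed lines mark a 2-fold change either way, and every interval includes 0.

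Of the receptor genes, Insr was the more abundant and neither passed the test. Insr, the insulin receptor, was at 71.5, 78.6 and 42.3 CPM in PKCzeta 2-1, 4-1 and 4-2, against 93.0, 56.0 and 109 CPM in GFP 1-1, 1-4 and 3-1. The ranges overlapped, with the lowest value in PKCzeta 4-2 and the next in GFP 1-4. Its log2 fold change was -0.42 (SE 0.31, 95% interval -1.13 to 0.28, adjusted p 0.917 in edgeR). It ranged from -0.66 without GFP 1-4 to -0.19 without PKCzeta 4-2. Igf1r, the receptor for insulin-like growth factor, averaged 18.1 ± 1.61 CPM with the PKCzeta label and 17.8 ± 5.64 CPM with the GFP label (SD, n = 3 each). Per length, Insr stood above Igf1r in 6 of 6 libraries. The ratio was 4.97, taken like the other ratios between paralogues as the geometric mean over libraries of TPM values with 0.1 added.

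Among the adaptors that carry the signal from the receptor, Irs2 was far more abundant than Irs1. It was at 43.7, 44.1 and 26.4 CPM with the PKCzeta label, against 53.6, 34.0 and 38.6 CPM with the GFP label, so the groups overlapped (log2 fold change -0.14, SE 0.26, and 0.060 on the log2(TPM + 1) scale). Irs1 was at 2.00, 2.57 and 1.88 CPM with the PKCzeta label, against 2.76, 1.87 and 2.94 CPM with the GFP label, the lowest of the 30 genes on either scale. In TPM the mean over 6 libraries was 0.322 for Irs1 and 7.43 for Irs2, and Irs2 was the higher in 6 of 6 libraries. With 0.1 added to each value the ratio was 17.7, which understates the gap because Irs1 is so low. Grb10, an adaptor that binds the activated receptor and damps its signal, averaged 6.0 ± 1.93 CPM with the PKCzeta label and 5.36 ± 1.30 CPM with the GFP label (SD, n = 3 each).

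The promoters of Irs1 and Irs2 are shown because the pair has the widest gap in level, and that of Rheb because it is the most abundant member per length. They are also the only 3 of the members' 36 windows that hold the motif marked below, so the match in all 3 does not describe the members at large. Each is a window from 250 bases before to 50 after the gene's start, from RefSeq on GRCm38.p6, read 5′ to 3′ on the gene's strand. The capitals mark CACGTG, the E-box that many basic helix-loop-helix factors bind, which reads the same on both strands. The Irs1 window is chr1:82291390-82291689, that of Irs2 is chr8:11008880-11009179 and that of Rheb is chr5:24842312-24842611, all on the minus strand.
Irs1: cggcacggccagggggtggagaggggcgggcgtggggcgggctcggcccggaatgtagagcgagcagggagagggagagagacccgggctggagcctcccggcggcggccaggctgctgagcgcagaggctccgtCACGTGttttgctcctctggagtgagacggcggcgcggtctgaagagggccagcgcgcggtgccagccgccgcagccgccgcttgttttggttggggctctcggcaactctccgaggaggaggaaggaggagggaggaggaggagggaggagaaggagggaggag
Irs2: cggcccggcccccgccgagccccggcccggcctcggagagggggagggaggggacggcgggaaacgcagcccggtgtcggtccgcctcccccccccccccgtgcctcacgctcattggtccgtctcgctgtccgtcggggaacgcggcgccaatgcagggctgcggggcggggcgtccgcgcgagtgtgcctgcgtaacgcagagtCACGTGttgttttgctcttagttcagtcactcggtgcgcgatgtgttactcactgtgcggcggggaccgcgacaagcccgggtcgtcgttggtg
Rheb: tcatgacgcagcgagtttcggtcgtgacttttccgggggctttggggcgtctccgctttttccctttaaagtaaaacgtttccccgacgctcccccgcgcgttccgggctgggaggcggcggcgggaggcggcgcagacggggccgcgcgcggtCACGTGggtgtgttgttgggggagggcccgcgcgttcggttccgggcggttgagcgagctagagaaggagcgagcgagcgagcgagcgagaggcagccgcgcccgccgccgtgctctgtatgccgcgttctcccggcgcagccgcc
The E-box starts 115 bases before the start of Irs1, 44 before that of Irs2 and 96 before that of Rheb. GC content was 71.3% in the Irs1 window and 72.0% in the Irs2 window, beside a median of 60.8% over the members' windows and 52.7% over all promoter windows.

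Windows were found for 26 of the 30 genes, 36 windows in all, and not for Insr, Deptor, Rps6kb2 and Eif4ebp1. CACGTG occurred in 3 of these 36 windows (8.33%), those printed here, and in 7.15% of all 32851 promoter windows. The FOXO motif GTAAACA, or TGTTTAC on the other strand, occurred in 1 member window, one of Akt1 (2.78%), and in 3.65% of all windows. TATAAA, or TTTATA on the other strand, occurred in a window of Gsk3b and of Pik3r1 (5.56%) and in 13.6% of all windows. These are matches of letters and not sites shown to be bound.

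PI3K consists of a catalytic subunit and a regulatory one. The regulatory gene Pik3r1 had the highest mean CPM of the 30 over 6 libraries, at 108.7, 125.3 and 109.0 CPM with the PKCzeta label, against 124.3, 99.6 and 126.9 CPM with the GFP label. The groups overlapped closely, with a log2 fold change of -0.032 (SE 0.16), and 0.19 on the log2(TPM + 1) scale. The other regulatory gene, Pik3r2, averaged 35.7 ± 6.39 CPM with the PKCzeta label and 40.2 ± 8.44 CPM with the GFP label (SD, n = 3 each). Of the catalytic genes, Pik3ca was the most abundant per length at a mean of 11.9 TPM over 6 libraries, with Pik3cb at 3.55 and Pik3cd at 2.52 TPM. The log2 fold change was 0.25 for Pik3ca, the alpha isoform (SE 0.16), and -0.12 for Pik3cb, the beta isoform (SE 0.20).

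Pik3cd, the delta isoform found mainly in leukocytes, had the largest fold change and the widest spread of the 30 genes. It lies at chr4:149649168-149702566 (GRCm38) and is given per library outside the rule for named genes, after its values were seen. It was at 17.1, 6.38 and 13.1 CPM in PKCzeta 2-1, 4-1 and 4-2, against 9.66, 6.67 and 3.17 CPM in GFP 1-1, 1-4 and 3-1. The ranges overlapped, since PKCzeta 4-1 lay below GFP 1-1 and 1-4, and the highest library was 5.41 times the lowest. In edgeR this gave 0.91 on the log2 scale (SE 0.47, 95% interval -0.18 to 2.00, unadjusted p 0.091, adjusted p 0.917). The value was 0.53 without PKCzeta 2-1, 0.58 without GFP 3-1 and 1.30 without GFP 1-1. The 7 lymphocyte markers summed to 323, 63.3 and 170.0 CPM in the PKCzeta libraries and 143.6, 83.1 and 51.0 CPM in the GFP libraries. From low to high, Pik3cd put the 6 libraries in the same sequence as this sum, which held for 1 member and for 0.834% of all tested genes. The largest part of the sum was Ptprc, a gene of leukocytes in general. It was at 190, 53.5 and 114 CPM in the PKCzeta libraries and 89.3, 59.3 and 42.0 CPM in the GFP libraries. Ptprc and Cd4 had the order of the sum, and the other markers had other orders. Cd8a was highest in PKCzeta 4-1, with a log2 fold change of -0.032, and the other 6 markers had positive values. In bulk tissue, fewer cells of a type and less RNA per cell cannot be told apart, and the part of lymphocytes in this difference was not tested.

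**Figure D2:**
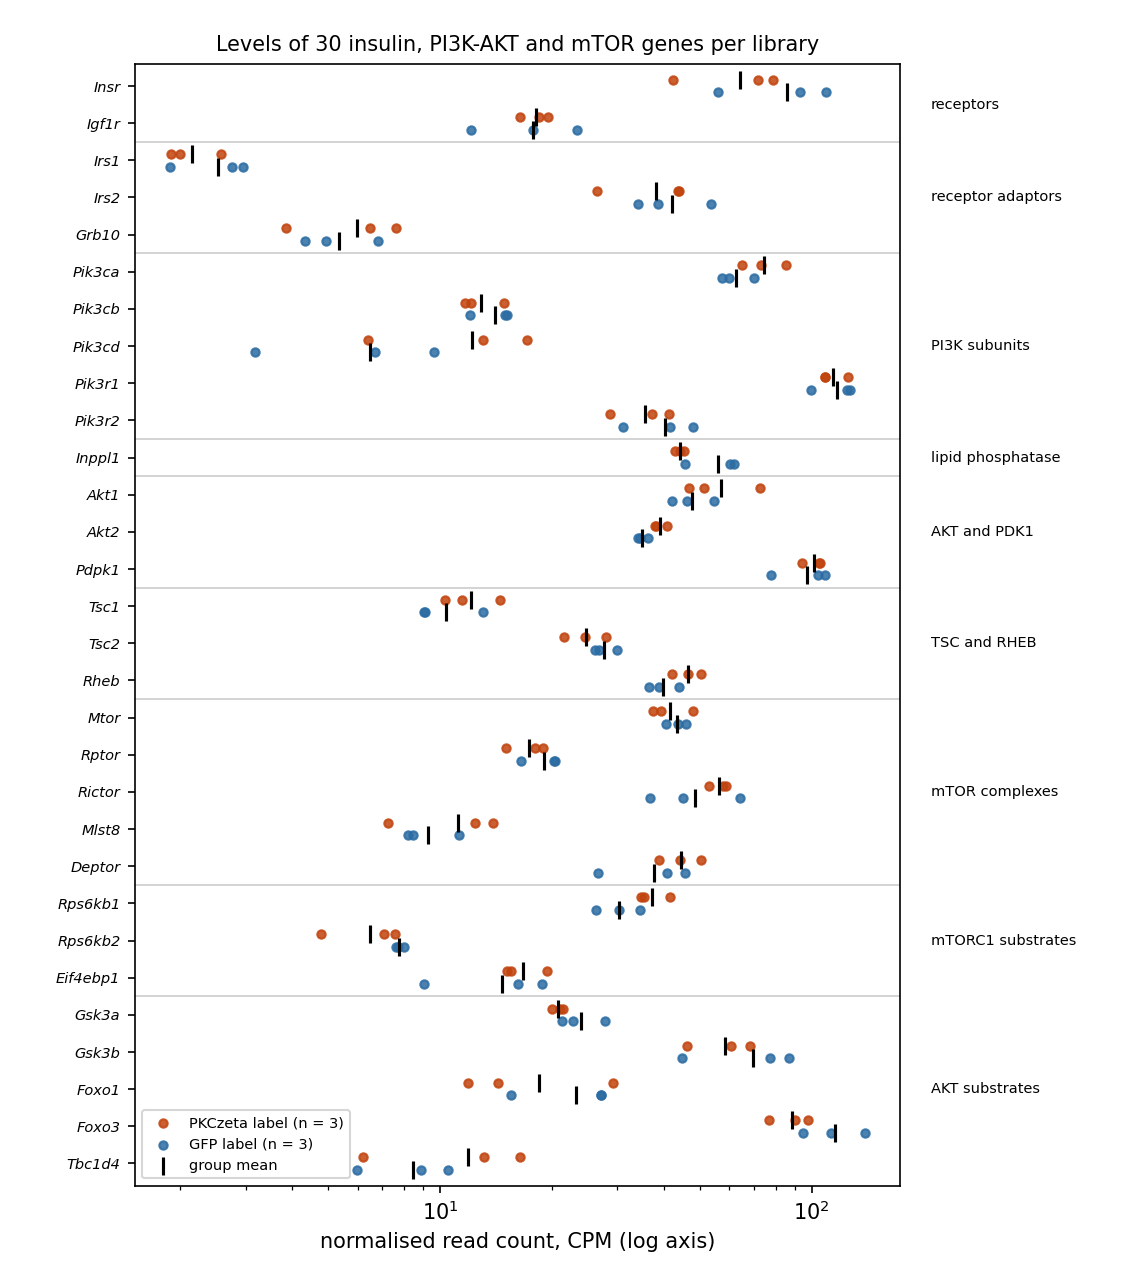
Normalised read count of each of the 30 genes in every library (CPM, log axis), with the PKCzeta libraries above the GFP libraries in each row and a bar at each group mean (n = 3 each). The points of the groups overlap in all rows but those of Inppl1, Akt2, Rps6kb1 and Rps6kb2, and Pik3cd has the widest scatter, from 3.17 to 17.1 CPM.

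In 4 of the 30 genes the ranges of the groups did not overlap, 2 higher (Akt2 and Rps6kb1) and 2 lower (Inppl1 and Rps6kb2) with the PKCzeta label. That is 13.3% of the members, beside 1916 of all tested genes (10.4%), of which 4.72% were higher and 5.66% lower. Inppl1 (chr7:101822632-101838226, GRCm38) encodes SHIP2, a lipid phosphatase that removes a phosphate from PIP3. It was at 42.9, 45.4 and 44.2 CPM with the PKCzeta label, against 45.7, 62.0 and 60.4 CPM with the GFP label. GFP 1-1 lay just above the highest PKCzeta library, so the separation was narrow there. In edgeR the difference was -0.34 on the log2 scale (SE 0.17, 95% interval -0.72 to 0.037, unadjusted p 0.071, adjusted p 0.917). The summed enterocyte markers were likewise lower in every PKCzeta library than in every GFP library. Within the groups the order differed, since GFP 1-1 had the highest enterocyte sum, 61213 CPM, and the lowest Inppl1 of the GFP libraries. The part of enterocytes in this difference was not tested.

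AKT, the central kinase of the pathway, is encoded by 2 members. Akt1 was at 46.7, 51.5 and 72.6 CPM with the PKCzeta label, against 42.2, 54.7 and 46.3 CPM with the GFP label, with overlapping ranges and the highest value in PKCzeta 4-2. Its log2 fold change was 0.26 (SE 0.21), and 0.047 without PKCzeta 4-2 or 0.16 without GFP 1-1. Akt2, the isoform known for glucose uptake in muscle and fat, was at 37.9, 40.8 and 38.2 CPM with the PKCzeta label, against 34.2, 36.4 and 34.5 CPM with the GFP label. All 3 PKCzeta libraries stood above all 3 GFP libraries, by a small step (log2 fold change 0.15, SE 0.14, adjusted p 0.917 in edgeR). Akt2 also had the smallest spread of the 30 genes, with a pooled within-group SD of 0.054 on the log2 CPM scale. Per length Akt1 exceeded Akt2 in 6 of 6 libraries, by a mean ratio of 2.24. Pdpk1, which encodes PDK1, averaged 101.5 ± 6.13 CPM with the PKCzeta label and 96.9 ± 16.6 CPM with the GFP label (SD, n = 3 each).

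The TSC complex holds RHEB in its inactive form, and RHEB in its active form switches on mTOR complex 1. Rheb was the most abundant member per length, at 42.4 ± 8.36 TPM with the PKCzeta label and 30.7 ± 0.642 TPM with the GFP label (SD, n = 3 each). On the CPM scale of the test it was at 42.2, 50.5 and 46.5 CPM with the PKCzeta label, against 38.9, 36.6 and 44.0 CPM with the GFP label. In TPM the groups did not overlap, and in CPM they overlapped through GFP 3-1 (log2 fold change 0.22, SE 0.15, adjusted p 0.917 in edgeR). On the log2(TPM + 1) scale the value of Rheb was 0.43, where the median of all tested genes was itself 0.14. Tsc1 and Tsc2, the partners of the complex, had log2 fold changes of 0.22 (SE 0.24) and -0.16 (SE 0.17). Tsc2 overlaps its neighbour Pkd1 by 699 bases, and the sources do not say whether reads were counted by strand.

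The mTOR kinase works in 2 complexes, the first built on RPTOR and the other on RICTOR, with MLST8 in both and DEPTOR as an inhibitor of both. Rictor had the highest level of these per length, a mean of 7.29 TPM over 6 libraries, followed by Mtor at 6.43, Deptor at 6.16, Mlst8 at 3.99 and Rptor at 3.42 TPM. Rictor was at 58.7, 57.7 and 53.1 CPM with the PKCzeta label, against 64.1, 36.7 and 45.2 CPM with the GFP label. The PKCzeta values lay inside the GFP range, and GFP 1-4 was lowest (log2 fold change 0.22, SE 0.21). Without GFP 1-4 the Rictor value was 0.049, and without GFP 1-1 it was 0.45. Mtor itself averaged 41.6 ± 5.63 CPM with the PKCzeta label and 43.4 ± 2.69 CPM with the GFP label (SD, n = 3 each), or -0.060 on the log2 scale (SE 0.16). Rptor, Mlst8 and Deptor had log2 fold changes of -0.14 (SE 0.19), 0.26 (SE 0.29) and 0.24 (SE 0.22).

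Below mTOR complex 1, the S6 kinase genes had opposite signs. Rps6kb1 (chr11:86498869-86544885, GRCm38), which encodes S6K1, was at 34.8, 35.5 and 41.5 CPM with the PKCzeta label, against 34.6, 30.4 and 26.2 CPM with the GFP label. The ranges did not overlap, though PKCzeta 2-1 and GFP 1-1 nearly met (log2 fold change 0.29, SE 0.17, 95% interval -0.098 to 0.69). Rps6kb2, which encodes S6K2, was at 7.57, 4.78 and 7.06 CPM with the PKCzeta label, against 8.0, 7.69 and 7.60 CPM with the GFP label. The groups again did not overlap, PKCzeta 4-1 being the low library, and the log2 fold change was -0.26 (SE 0.24). It was -0.087 without PKCzeta 4-1 and -0.44 without PKCzeta 2-1. Neither passed the test (adjusted p 0.917 each in edgeR). Rps6kb1 shares 139 bases with Rnft1, which had 5351 counts on average over the 6 libraries beside 2969 for Rps6kb1, and a log2 fold change of -0.067. Eif4ebp1, whose protein holds back cap-dependent translation until mTOR phosphorylates it, was at 15.2, 15.5 and 19.4 CPM with the PKCzeta label, against 18.8, 16.2 and 9.05 CPM with the GFP label. The ranges overlapped, and without GFP 3-1, the lowest library, its log2 fold change was -0.065 in place of 0.19 (SE 0.28). It was 0.075 without PKCzeta 4-2 and 0.39 without GFP 1-1.

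The genes for AKT substrates held 4 with lower and 1 with higher values under the PKCzeta label. Foxo3, a transcription factor that AKT keeps out of the nucleus, was at 98.0, 90.5 and 76.8 CPM with the PKCzeta label, against 112.9, 95.1 and 139.4 CPM with the GFP label. It had the smallest p of the 30 genes, yet the ranges overlapped, since GFP 1-4 lay below PKCzeta 2-1. The edgeR estimate was -0.39 on the log2 scale (SE 0.19, 95% interval -0.82 to 0.038, unadjusted p 0.069, adjusted p 0.917), beside the lower enterocyte markers, whose part was not tested. The Foxo3 value was -0.23 without GFP 3-1 and -0.14 on the log2(TPM + 1) scale. The gene lies at chr10:42181845-42276695 (GRCm38). Another gene, Gm38485, lies over 27374 bases of it with 784 counts on average, beside 8784 for Foxo3. Foxo1, a paralogue of Foxo3, was at 29.2, 11.9 and 14.3 CPM with the PKCzeta label, against 27.1, 15.5 and 27.1 CPM with the GFP label. One library of each group departed from its own group here, PKCzeta 2-1 as the highest of all and GFP 1-4 as the low one among the controls (log2 fold change -0.33, SE 0.37). The Foxo1 value was -0.87 without PKCzeta 2-1 and -0.55 without GFP 1-4. It was -0.094 without PKCzeta 4-1, -0.18 without PKCzeta 4-2, -0.22 without GFP 1-1 and -0.20 without GFP 3-1.

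GSK3, which restrains glycogen synthesis until AKT phosphorylates it, is encoded by Gsk3a and Gsk3b. Gsk3a averaged 20.8 ± 0.684 CPM with the PKCzeta label and 24.0 ± 3.43 CPM with the GFP label (SD, n = 3 each, log2 fold change -0.21, SE 0.17). It shares 1542 bases with another gene, 9130221H12Rik, which had 252 counts on average beside 1952 for Gsk3a. Gsk3b averaged 58.4 ± 11.2 CPM with the PKCzeta label and 69.6 ± 21.9 CPM with the GFP label (SD, n = 3 each; log2 fold change -0.25, SE 0.26). Tbc1d4, which encodes AS160, a brake on the movement of the transporter GLUT4 to the surface in muscle and fat, was the member with higher values. It averaged 11.9 ± 5.21 CPM with the PKCzeta label and 8.45 ± 2.30 CPM with the GFP label (SD, n = 3 each; log2 fold change 0.50, SE 0.38). Its 2 highest libraries, PKCzeta 4-2 and 2-1, were also the 2 with the highest sum of lymphocyte markers, and what these cells contribute was not tested.

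Between paralogues of 1 family, the ratio of TPM values within a library does not depend on library size, and 7 pairs were compared. The order within a pair was the same in 6 of 6 libraries for Insr over Igf1r, Irs2 over Irs1, Akt1 over Akt2, Foxo3 over Foxo1 (a mean ratio of 4.05) and Rps6kb1 over Rps6kb2 (a mean ratio of 1.87). It was the same in 5 of 6 for Gsk3a over Gsk3b and Pik3r1 over Pik3r2, where 1 GFP library each had the opposite order. Rps6kb1 to Rps6kb2 was the pair whose ratio did not overlap between the groups. Its log2 ratio was 0.97, 1.52 and 1.08 with the PKCzeta label, against 0.78, 0.52 and 0.56 with the GFP label, or 1.19 ± 0.290 against 0.62 ± 0.141 (SD, n = 3 each). The exact two-sided permutation p was 0.1, the smallest that 3 against 3 allows, and 0.7 adjusted over the 7 pairs. The log2 ratio of Insr to Igf1r was 2.08 ± 0.368 with the PKCzeta label and 2.55 ± 0.308 with the GFP label (SD, n = 3 each), with overlapping ranges and an exact permutation p of 0.2 (0.7 adjusted). In the other 5 pairs the exact permutation p was 0.7 to 1.

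**Figure D3:**
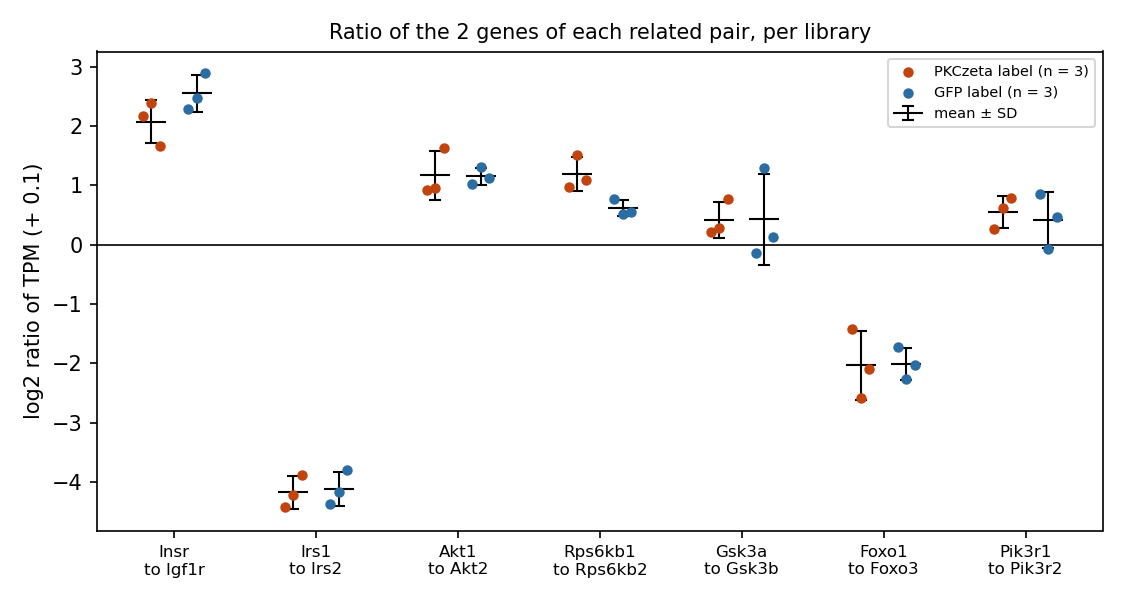
Log2 ratio of the TPM values (plus 0.1) of 2 related genes in each library, PKCzeta left of GFP in each pair, with mean and SD (n = 3 each). The ratio of Rps6kb1 to Rps6kb2 lies between 0.97 and 1.52 with the PKCzeta label and between 0.52 and 0.78 with the GFP label, and the other 6 pairs overlap.

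The libraries with the least ribosomal RNA were at an extreme for some members. Of the 30 genes, 7 had their 2 lowest values in PKCzeta 4-2 and GFP 1-4, the libraries with the lowest share of ribosomal RNA, or 23.3% against 11.1% of all tested genes. These 7 were Insr, Igf1r, Irs1, Irs2, Pdpk1, Deptor and Gsk3b, which include both receptors and both IRS adaptors. Akt1 and Mtor had their 2 highest values in the same pair of libraries (6.67% of members, and 16.4% of all tested genes). No test of these shares was made, and over both extremes the members' count is near that of all genes. Mitochondrial RNA was also lowest in these libraries, at 2.92% of counts in PKCzeta 4-2 and 3.37% in GFP 1-4, against 5.67% to 10.7% in the others. GFP 1-4 was the lowest library for 9 of 30 members, and for 20.6% of all tested genes. It was also the lowest library for the summed smooth muscle markers, at 646 CPM, against 1036 to 1296 CPM with the PKCzeta label and 1532 to 1545 CPM in the other GFP libraries. With the ribosomal RNA share, above or below 4%, as a term in the edgeR fit, 0 members and 0 of all genes passed. This term was chosen after seeing the data. It sets PKCzeta 4-1, at 2.33%, with PKCzeta 4-2 and GFP 1-4. With it Insr stood at -0.20 (SE 0.28) and Foxo1 at -0.067 (SE 0.18) on the log2 scale, nearer to 0 than without it. Rictor stood at 0.35 (SE 0.20), Pik3cd at 0.98 (SE 0.51) and Inppl1 at -0.39 (SE 0.17), further from 0, and the unadjusted p of Inppl1 was then 0.047 in edgeR. The part of muscle or of mitochondrial RNA in these differences was not tested.

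**Figure D4:**
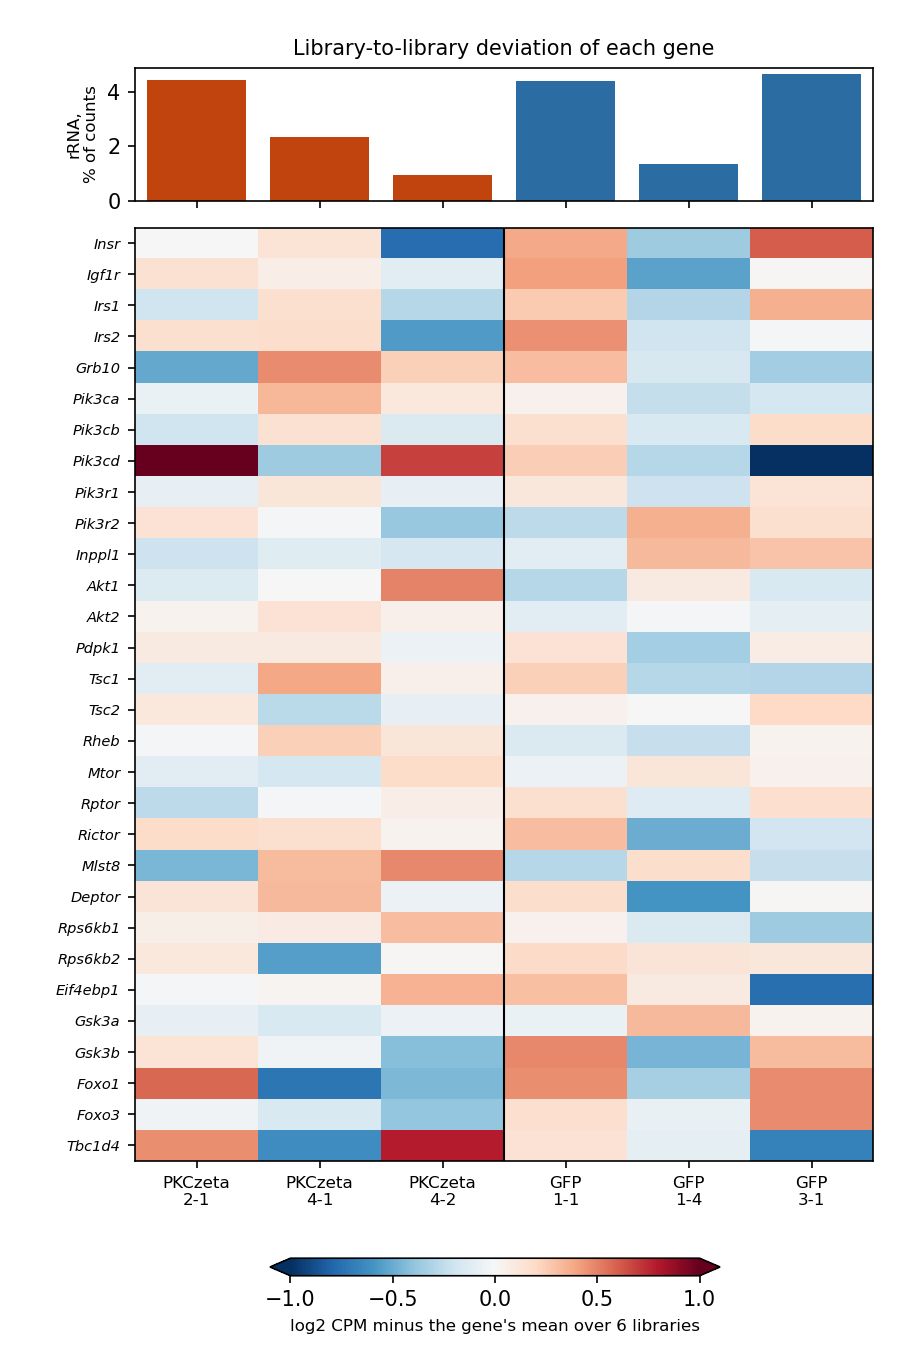
Deviation of each gene's log2 CPM from its mean over the 6 libraries (colour), PKCzeta libraries left of the line and GFP libraries right of it, with the share of ribosomal RNA in percent of counts as bars above. Insr, Igf1r, Irs1 and Irs2 are lowest in PKCzeta 4-2 and GFP 1-4, where ribosomal RNA is at 0.956% and 1.35%.

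The wider pathway was described with 136 other genes in 10 lists, of which 131 were tested. Of these, 65 were higher and 66 lower with the PKCzeta label, their median was -0.0017 on the log2 scale, and 0 passed an adjusted p of 0.05. At an unadjusted p under 0.05 there were 8 (6.11%, beside 5.48% of all tested genes), 5 higher and 3 lower. Insulin itself, encoded by Ins1 and Ins2, and the binding protein gene Igfbp1 had 0 counts in every library and were not tested. In the list of ligands, binding proteins and other receptors 5 of 10 were higher and 5 lower. Its smallest p was that of Igfbp6, a binding protein for insulin-like growth factor 2, at 2.23, 2.85 and 1.60 CPM with the PKCzeta label, against 9.68, 3.54 and 6.69 CPM with the GFP label. The ranges did not overlap (log2 fold change -1.58, SE 0.41, adjusted p 0.858 in edgeR). Igf2r, the scavenging receptor for the same ligand, and Igf2 had log2 fold changes of -0.20 (SE 0.14) and -0.47 (SE 0.38).

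Other adaptors and receptor phosphatases held 7 genes with higher and 6 with lower values, 3 and 1 of them at an unadjusted p under 0.05. That is 4 of 13 (30.8%), beside 5.48% of all tested genes. Ptprf, the receptor phosphatase LAR, was at 292, 271 and 236 CPM with the PKCzeta label, against 355, 459 and 529 CPM with the GFP label, without overlap (log2 fold change -0.75, SE 0.19). Ptpn1, which encodes PTP1B, a phosphatase that switches the insulin receptor off, was at 34.2, 26.5 and 31.4 CPM with the PKCzeta label, against 23.7, 21.3 and 14.8 CPM with the GFP label. These groups did not overlap either (log2 fold change 0.62, SE 0.22), and the adaptor gene Sh2b2 had 1.40 (SE 0.49) from a mean of 0.409 CPM with the GFP label. The phosphatase gene Ptpn2, named after its values were seen, was the other one, at 0.39 (SE 0.15) and without overlap. The adjusted p was 0.858 for Ptprf, 0.867 for Ptpn1 and Sh2b2 and 0.877 for Ptpn2 in edgeR. Other PI3K subunits and lipid phosphatases had 9 higher and 6 lower of 15. Pik3cg, the gamma isoform of leukocytes, was at 24.7, 14.6 and 18.4 CPM with the PKCzeta label, against 12.7, 9.26 and 6.98 CPM with the GFP label (log2 fold change 0.99, SE 0.29, adjusted p 0.858 in edgeR). Its partner Pik3r6 had 0.90 (SE 0.37), and Inpp5d, the SHIP1 phosphatase of blood cells, 1.01 (SE 0.66). Inpp5d was at 68.9, 11.7 and 35.5 CPM with the PKCzeta label, against 27.5, 22.0 and 8.03 CPM with the GFP label, the order of libraries that the lymphocyte sum also has. Markers of macrophages and neutrophils summed to 46.6 to 79.0 CPM with the PKCzeta label and 34.9 to 50.2 CPM with the GFP label, with the highest sum in PKCzeta 4-1, where Inpp5d was low. Of these 7 markers the macrophage genes Adgre1, Csf1r and Cd68 had log2 fold changes of 0.019, 0.089 and 0.43. The neutrophil genes S100a8, S100a9, Csf3r and Cxcr2 had 1.67 to 3.78, with Cxcr2 at 0 in a GFP library. The part of these cells in the values of Pik3cg, Pik3r6 and Inpp5d was not tested.

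In the remaining lists 1 gene had an unadjusted p under 0.05. This was Sgk2, an AKT-related kinase of epithelia, at 22.2 ± 5.20 CPM with the PKCzeta label and 32.7 ± 2.99 CPM with the GFP label (SD, n = 3 each; log2 fold change -0.56, SE 0.21). In its list of AKT regulators and related kinases 4 were higher and 7 lower, with the AKT phosphatase gene Phlpp2 at -0.49 (SE 0.29) and the pseudokinase gene Trib2 at 1.02 (SE 0.63). Trib2 was at 16.04, 3.46 and 9.14 CPM with the PKCzeta label, against 8.21, 3.83 and 2.09 CPM with the GFP label, again in the order of the lymphocyte sum, whose part was not tested. The other TSC and mTOR complex genes had 5 higher and 6 lower, with the assembly gene Telo2 at 0.68 (SE 0.35). Amino acid sensing upstream of mTOR complex 1 was balanced, at 15 higher and 13 lower of 28 and a median of 0.033. Its smallest p values were those of Seh1l, a part of the GATOR2 complex, at 0.33 (SE 0.16), and of the Rag GTPase gene Rragd, at -0.54 (SE 0.27). Translation and autophagy effectors had 8 higher and 4 lower, with Rps6, the ribosomal protein that S6 kinases phosphorylate, at 0.28 (SE 0.20). FOXO genes and their targets had 5 higher and 9 lower of 14, with Gadd45a at -0.73 (SE 0.38) and the glucose-6-phosphatase gene G6pc at -0.72 (SE 0.60). AMPK genes had 7 higher and 3 lower, with Prkab2 at 0.33 (SE 0.27). GLUT4 trafficking genes had 1 higher and 7 lower, with a median of -0.25 and Sort1 at -0.33 (SE 0.20). Of the genes in this paragraph 0 passed (edgeR adjusted p 0.871 or more).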

How the data were processed

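The submitters' processing notes name FastQC, Trimmomatic, HISAT2, StringTie and the build mm10, without versions, and which program counted reads, and by which strand, is not stated. Ribosomal RNA was depleted and the kit keeps strand, per the labels' protocols. The deposited table holds whole-number read counts per gene, with no normalisation, beside the authors' TPM and FPKM. TPM as deposited corrects for transcript length, and the deposited FPKM was not used.

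The test was edgeR 4.0.16 under R 4.3.3 (filterByExpr, TMM, robust quasi-likelihood F test, two-sided), with Benjamini-Hochberg adjustment over 18456 genes and a threshold of 0.05. It was also tested on simulated data. Paralogue ratios used log2(TPM + 0.1) and an exact permutation test. Alternatives used limma 3.58.1, DESeq2 1.42.0, other scalings and filters, and leaving out each library.

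The members and lists were chosen with earlier results of these data known. Values per library are given for Prkcz, members with an unadjusted p under 0.05 and the most abundant member of each role by TPM. Irs1, Pik3cd, Akt2, Rps6kb1, Rps6kb2 and Foxo1 were added after their values were seen, as were the values per library of Igfbp6, Ptprf, Ptpn1, Pik3cg, Inpp5d and Trib2. From each list of other pathway genes, up to 3 with the smallest p are named. Of the 45777 gene IDs, 45679 matched RefSeq on GRCm38, the source of positions.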

Additional observations from a re-analysis of the deposited data

How the results depend on the processing

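The count of members past the threshold was 0 under every alternative run. The count of all genes past it was 0 in all but DESeq2, which called 82. Members at an unadjusted p under 0.05 were 0 to 2 higher and 0 to 3 lower when a library was left out, in fits where 2.82% to 7.19% of all genes were under it. The names in those fits were Pik3cd and Tbc1d4 (without PKCzeta 4-1), Foxo1 (without PKCzeta 2-1), Pik3cd, Inppl1 and Rictor (without GFP 1-1) and Insr, Gsk3b and Foxo3 (without GFP 1-4). There was 1 lower in limma voom (Foxo3, beside 8.29% of all genes). There was also 1 lower in the fit with the ribosomal RNA share, which was chosen after seeing the data (Inppl1, beside 5.68% of all genes). On log2(TPM + 1) and log2(TPM + 0.1) there was 1 higher (Pik3cd, beside 5.71% and 5.68% of all genes). On the TPM scales the median of all genes moved to 0.14 and 0.23, that of the members to 0.19 and 0.24, and 25 of 30 members had positive values. There Prkcz stood at 0.053 and 0.055, Irs1 at 0.0023 and 0.0062, Irs2 at 0.060 and 0.068, and Pik3r1 at 0.19 and 0.20, and with the ribosomal RNA share Pik3r1 was at 0.013. Leaving out a library gave -0.050 to 0.092 for the members' median, -0.35 to 0.047 for Prkcz, -0.28 to 0.069 for Irs2, -0.14 to 0.034 for Pik3r1 and -0.065 to 0.39 for Eif4ebp1. The paralogue differences ranged from 0.41 to 0.68 for Rps6kb1 to Rps6kb2, -0.63 to -0.27 for Insr to Igf1r, -0.21 to 0.093 for Irs1 to Irs2, -0.22 to 0.14 for Akt1 to Akt2, -0.29 to 0.43 for Gsk3a to Gsk3b, -0.33 to 0.25 for Foxo1 to Foxo3 and -0.11 to 0.36 for Pik3r1 to Pik3r2. The cause of these moves was not tested. No paired analysis was possible because the groups share no replicate number.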
